A study of Mus musculus with 24 samples.

Results

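Iris miRNA was measured on 3 of the 24 mouse miRNA arrays of a study of lens-induced myopia, and these 3 arrays were set against the 15 arrays of the other 5 ocular tissues (cornea, lens, retina, choroid and sclera). All mice were C57BL/6J, and the study's methods give males that received a −30 D lens on the right eye at 3 weeks of age for 3 weeks (Lens-induced), or were kept without a lens (Control). A group with a 0 D lens (0D) is also labelled. Each array received the RNA of 1 tissue from 1 lens group. The methods state that RNA of 3 mice was pooled for the Control and Lens-induced arrays, and the pooling for 0D is not given in the sources used here. The tissue labelled choroid was RPE/choroid in the study. Because a tissue had 1 array per lens group, the 3 lens groups served as near-replicates of each tissue. A p-value thus measures the spread between arrays of the lens groups and not between animals. Each slide carried the 8 tissues of 1 lens group, so a slide effect and a lens effect cannot be told apart, and the comparison of tissues was made within slides. In bulk tissue, fewer cells of a type and less RNA per cell cannot be told apart.

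A miRNA is a short RNA that guides silencing proteins to messenger RNAs, mainly by pairing of its seed, the bases near its 5′ end. The iris is a thin diaphragm with a pigmented epithelium, a stroma that holds melanocytes and blood vessels, and the sphincter and dilator smooth muscles that set the pupil. The miR-143/145 pair is known from smooth muscle, miR-211 and its near twin miR-204 from pigment cells and ocular epithelia, miR-126 from endothelium, the miR-183/96/182 cluster from photoreceptors and other sensory cells, and miR-124 and miR-9 from neurons.

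The sequences below belong to miRNAs that carried the main differences, and the seed (bases 2 to 8) is in capitals. The miR-211/miR-204 pair comes first, because its members share a seed and differed in opposite directions between the iris and the other tissues. The second set holds miR-34a-5p, one of the miRNAs highest in the iris, and iris-enriched miRNAs that share a seed or a cluster, and the third holds the iris-depleted sensory cluster. Sequences and positions are from RefSeq (mouse GRCm38.p6). Of the 41 miRNAs called below, 38 matched a usable entry. The prefix mmu- is left out of all names.

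miR-211-5p: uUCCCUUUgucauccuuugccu

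miR-204-5p: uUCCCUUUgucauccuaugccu

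miR-34a-5p: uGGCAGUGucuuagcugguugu

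miR-99b-5p: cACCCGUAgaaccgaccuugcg

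miR-100-5p: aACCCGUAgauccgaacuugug

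let-7e-5p: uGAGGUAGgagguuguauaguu

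miR-195a-5p: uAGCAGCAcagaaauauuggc

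miR-497a-5p: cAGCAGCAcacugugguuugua

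miR-183-5p: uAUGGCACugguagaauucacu

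miR-96-5p: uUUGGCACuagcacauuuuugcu

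miR-182-5p: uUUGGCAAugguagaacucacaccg

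miR-211-5p lies at chr7:64205831-64205852 (+) and miR-204-5p at chr19:22750610-22750631 (+), and they are known to be made from introns of the ion channel genes Trpm1 and Trpm3. Their sequences matched at 21 of 22 bases and differed at A17U (miR-204-5p first, counted from the 5′ end). miR-99b-5p, at chr17:17830194-17830215 (+), stands 172 bases from let-7e-5p. It shares the seed ACCCGUA with miR-100-5p, which lies on chromosome 9. miR-497a-5p, at chr11:70234730-70234751 (+), stands 332 bases from miR-195a-5p, and both have the seed AGCAGCA. The sensory cluster is on the minus strand of chromosome 6, where miR-96-5p starts 205 bases and miR-182-5p 3749 bases from miR-183-5p.

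The arrays carried probes for 1881 miRNAs, and a miRNA was detected when at least 1 of its probes exceeded 3 times its error. The iris arrays detected 213 to 234 miRNAs and the other 15 arrays 129 to 245, with the fewest on cornea (137 to 172) and lens (129 to 149). Signals were scaled to a common 75th percentile, taken over the 79 miRNAs that every array of the series detected. The log2 scaling factors ran from −1.01 to −0.43 for the iris and from 1.27 to 1.65 for the lens, so the iris arrays were brighter than the lens arrays before scaling. The lowest detected scaled signal was 1.09 to 1.72 on iris arrays against 4.06 to 9.93 on cornea and 6.18 to 9.61 on lens arrays. All values under 9.93, the highest of these limits, were therefore set to that floor before log2 and the tests. Arrays at the floor add no spread to the fit. Where tissues lie at the floor, the SE and adjusted p can therefore understate the variation between arrays.

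Across the 3 iris arrays, 201 miRNAs were detected on all 3, and their scaled signals lay close together. The median range over the 3 arrays was 0.27 on the log2 scale, and 86.6% of the 201 stayed within a range of 1. Pearson correlations of log2 signals across these miRNAs were 0.976 to 0.984 between pairs of iris arrays, as a description, since miRNAs on an array are not independent. The widest range was that of miR-574-3p, with scaled signals of 17.6 in Control, 1.49 in 0D and 8.16 in Lens-induced. The neuronal miR-9-3p (19.2, 5.13 and 9.17) and miR-128-3p (28.0, 8.73 and 11.2) were also highest on the Control iris array, and with 1 array per lens group no test of such a difference was possible.

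Of 308 miRNAs detected on 3 or more of the 18 ocular arrays, 20 (6.49%) were iris-enriched and 21 (6.82%) iris-depleted. The definition was a Benjamini-Hochberg adjusted p under 0.05 in limma and a log2 difference of at least 1 between the iris and the mean of the other 5 tissues, which also had to hold within each of the 3 lens groups. By adjusted p alone, 68 (22.1%) were higher and 109 (35.4%) lower in the iris, and the median log2 difference of all 308 was −0.08. The split of calls moved with the scaling. Without scaling there were 64 enriched and 16 depleted (80% of the calls enriched, against 48.8% in the main setting), and all 20 main enriched and 10 of the 21 main depleted miRNAs kept their call. Quantile normalization gave 29 and 16, the 75th percentile over each array's own detected miRNAs 44 and 23, the median over the 79 shared miRNAs 17 and 27, and a normexp background correction 6 and 22. The total gene signal printed in the scanner files gave 29 and 34. Only 7 of the 20 main enriched and 13 of the 21 main depleted miRNAs kept their call there. The median of all miRNAs moved by 0.17 without scaling and by −0.67 under normexp. Just inside the limits were let-7i-5p at 1.09 and miR-3473g at −1.11. Just outside, miR-361-5p reached 1.06 overall and 0.96 in the 0D group, and miR-3968 reached −1.52 overall and −0.92 in the Lens-induced group.

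**Figure D1:**
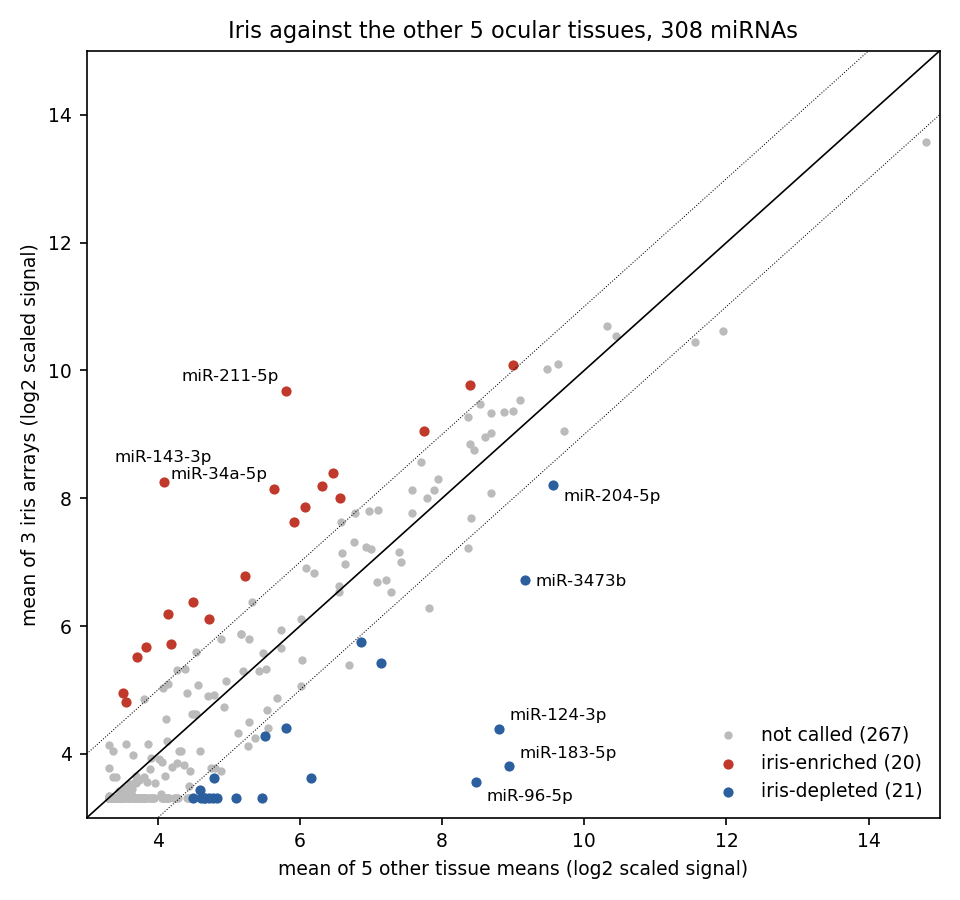
Mean log2 scaled signal of the 3 iris arrays (vertical axis) against the mean of the 5 other tissue means (horizontal axis) for the 308 miRNAs tested, with the line of equality and dotted lines 1 log2 unit away. The 20 iris-enriched (red) and 21 iris-depleted (blue) miRNAs lie beyond the dotted lines. miR-143-3p and miR-211-5p stand farthest above, and miR-183-5p, miR-96-5p and miR-124-3p farthest below.

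The miRNA with the largest excess in the iris was miR-143-3p, known from smooth muscle, where it is made together with miR-145. Its scaled signal on the iris arrays was 304 in Control, 310 in 0D and 307 in Lens-induced. On the choroid arrays it was 42.0, 43.0 and 44.6, and on the sclera arrays 39.9, 37.3 and 24.1 in the same order. The groups did not overlap, and miR-143-3p was not detected on any cornea, lens or retina array. The log2 difference from the mean of the other 5 tissues was 4.18 ± 0.10 (SE, 3 arrays per tissue, limma adjusted p = 4.8e-11). Measured against the detection limits, the iris was at least 52.8-fold above the retina, at least 15.7-fold above the cornea and at least 12.2-fold above the lens. Fitted differences from tissues without detection depend on the floor and are not bounds. The call held under all 20 alternatives in which miR-143-3p was tested.

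Its partner miR-145a-5p gave 15.2, 14.8 and 24.1 on the iris arrays and was not detected on any of the other 15 arrays. The log2 difference was 0.82 ± 0.10 (adjusted p = 1.9e-05), below the limit of 1 for a call, and it was −0.01 under normexp. On its own limits the iris was at least 3.04-fold above the retina, at least 2.11-fold above the choroid and at least 1.89-fold above the sclera, while the limits of the cornea and lens arrays allowed no bound. The other 2 members of the smooth muscle list, miR-143-5p and miR-145a-3p, were not detected on any ocular array. The summed signal of the list was 319 to 331 on the iris arrays, 42.0 to 44.6 in the choroid and 24.1 to 39.9 in the sclera.

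The second largest excess was that of miR-211-5p, a miRNA known from melanocytes and the retinal pigment epithelium. The iris arrays gave 782, 906 and 772 in Control, 0D and Lens-induced. Retina gave 162, 190 and 144, choroid 71.9, 128 and 108, and sclera 48.4, 75 and 51.3. Cornea (23.7, 12 and 43.3) and lens (28.2, 27.6 and 21.2) were lowest. All 3 iris arrays lay above all 15 others, and the difference was 3.87 ± 0.30 (adjusted p = 4.3e-07), a 14.6-fold excess, which held under all 21 alternatives. Against single tissues the log2 difference ran from 2.32 ± 0.39 for the retina to 5.15 ± 0.39 for the cornea.

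miR-204-5p, which differs from miR-211-5p in 1 base, went the other way. Its iris signals were 288, 304 and 295, below every one of the other 15 arrays. The lowest of those was 519, the median 707 and the highest 1349, with the lens arrays at the top (1198, 1349 and 1247). The difference was −1.35 ± 0.05 (adjusted p = 1.2e-09), called lower than cornea, lens, retina and choroid, and −0.96 ± 0.06 from the sclera. Without scaling it was −0.44 and was not called, nor was it called with the 75th percentile over each array's own detected miRNAs. How far the probes of this pair tell both sequences apart was not tested. Of the minor arms, miR-204-3p was detected on 1 of 3 iris arrays, at 2.63, and on all 15 others at 12.1 to 34.5, with a difference of −0.97 ± 0.10 (adjusted p = 6.4e-06). miR-211-3p gave 53.6, 49.0 and 77.1 in the iris and 326 to 432 in the lens, with a difference of 0.70 ± 0.17 (adjusted p = 0.0030) that turned to −0.05 under normexp. The summed signal of these 4 miRNAs was 1124 to 1262 in the iris, 892 to 1066 in the choroid and 1620 to 1818 in the lens.

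**Figure D2:**
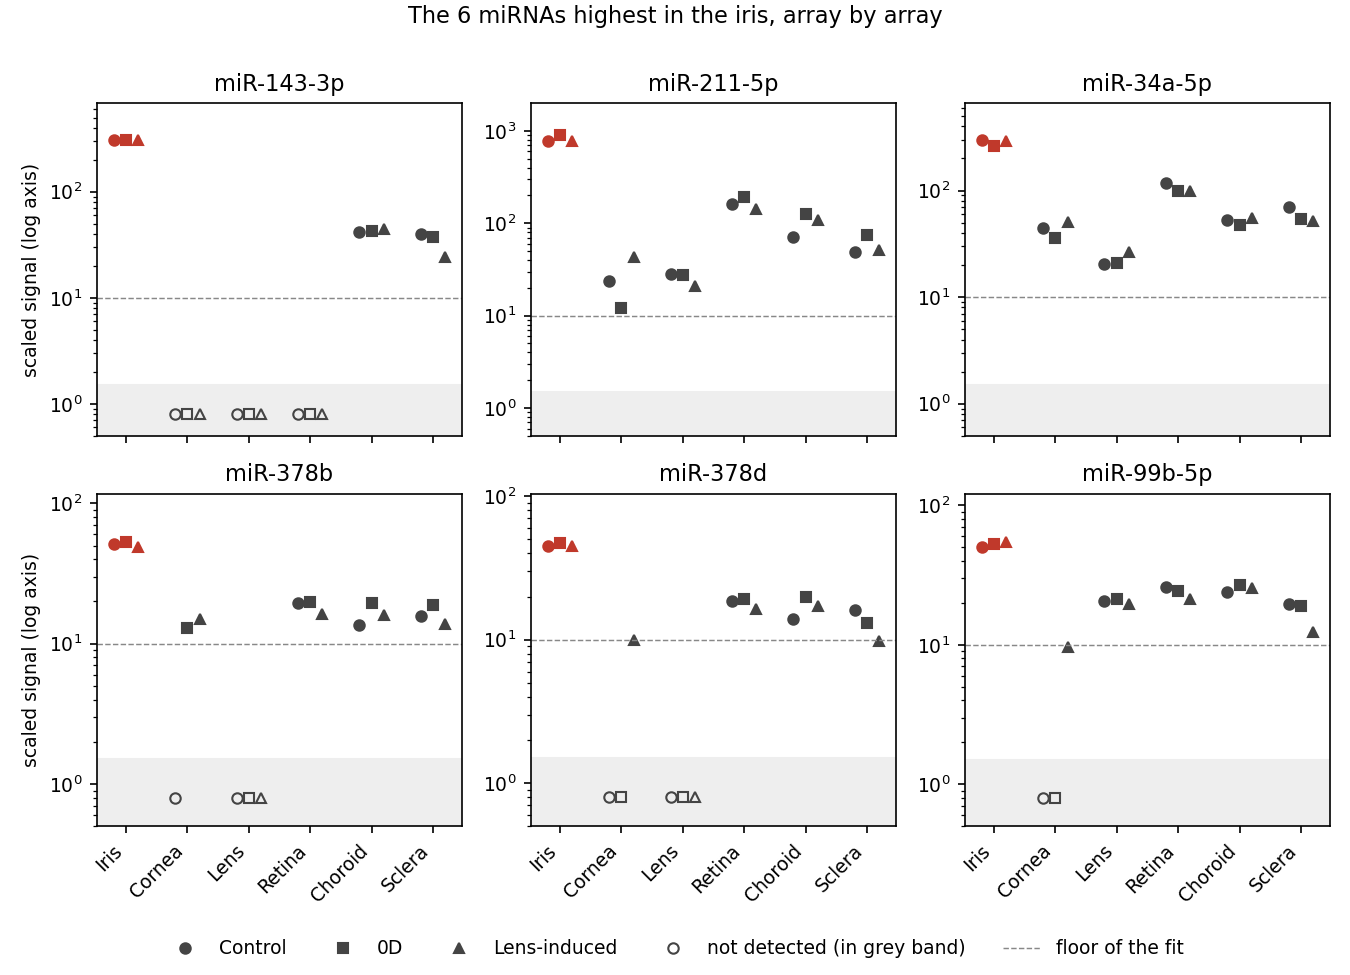
Scaled signal (log axis) of the 6 miRNAs highest in the iris on each of the 18 ocular arrays. Red symbols are iris, grey symbols the other tissues, shapes mark the lens group, open symbols in the grey band mark arrays without detection, and the dashed line is the floor of 9.93 used in the fit. In each panel all 3 iris arrays lie above the other 15.

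In all, 6 miRNAs (1.95% of 308) were highest in the iris, meaning that they were called higher than every other tissue and stood above all 5 others within each lens group. Without the retina there were 12 such miRNAs. Beside miR-143-3p and miR-211-5p these were miR-34a-5p, miR-378b, miR-378d and miR-99b-5p. miR-34a-5p, a target of the tumor suppressor p53, gave 299, 264 and 291 in the iris. Its highest other arrays were those of the retina at 117, 98.6 and 100, and its lowest those of the lens at 20.6, 21 and 26.4. The groups did not overlap, and the log2 difference was 2.51 ± 0.10 (adjusted p = 1.8e-09).

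The miR-378 family is known from energy metabolism, where miR-378a is made from an intron of Ppargc1b. Of 4 members tested, 3 were iris-enriched, against 6.49% of all 308. The other, miR-378a-5p, gave 13.8, 13.4 and 14.3 in the iris, near the floor, and at most 5.59 elsewhere, in the retina. It did not reach the limit for a call. Its adjusted p (limma, 4.8e-11) does not measure the difference, because every array of the other tissues entered the fit at the floor and added no spread. On the detection limits the iris was at least 1.68-fold above the choroid and at least 1.48-fold above the sclera. The mean limits of the cornea (19.5) and lens (25.2) arrays lay above the iris signals and allowed no bound. miR-378b gave 51.6, 53.0 and 48.7 in the iris and at most 19.7 elsewhere, with a difference of 1.84 ± 0.12 (adjusted p = 8.3e-08). miR-378d gave 44.9, 47.2 and 45.2 and at most 20.0 elsewhere, with a difference of 1.81 ± 0.11. miR-378a-3p gave 28.5, 27.3 and 37.8 and at most 16.7 elsewhere, with a difference of 1.44 ± 0.10. The iris arrays lay above all other arrays for all 3 enriched members. The sequences of miR-378b and miR-378d are alike in most bases. How far the probes tell the members of this family apart was not tested. None of the 3 was detected on a lens array, where the limits allowed bounds of only at least 2.02-fold, at least 1.81-fold and at least 1.22-fold. With a floor 4 times higher none of the 3 was called.

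On chromosome 17, 2 of the 3 neighbouring miRNAs were enriched, against 6.49% of all 308. miR-99b-5p gave 50.4, 52.3 and 54.8 in the iris and at most 26.9 elsewhere, with a difference of 1.52 ± 0.10 (adjusted p = 1.2e-07). let-7e-5p gave 884, 882 and 869, against at most 531 on the other arrays (the retina at 491 to 531), and a difference of 1.39 ± 0.09 (adjusted p = 8.4e-08). The last member, miR-125a-5p, gave 117, 116 and 110 in the iris but 150 to 154 in the lens, and its difference was 0.64 (adjusted p = 8.3e-08), under the limit for a call. The miR-99b-5p seed mate miR-100-5p was also enriched (198, 180 and 218 in the iris, 1.71 ± 0.11, adjusted p = 8.3e-08), while miR-99a-5p with the same seed differed by 0.36.

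On chromosome 11, the neighbours miR-195a-5p and miR-497a-5p, members of the growth-restraining miR-15/16 family, were enriched together. miR-195a-5p gave 296, 284 and 299 in the iris, 129 to 198 in choroid and sclera, 91.6 to 120 in cornea and retina, and 13.3 on the only lens array that detected it. miR-497a-5p gave 242, 230 and 229 in the iris, with 171 as the highest signal elsewhere. For both, the iris arrays lay above all 15 others, with differences of 1.89 ± 0.11 (adjusted p = 5.4e-08) and 1.79 ± 0.08 (adjusted p = 8.2e-09). Of 6 tested miRNAs with this seed, these 2 were called, against 6.49% enriched among all 308. The other 4 lay between −0.49 (miR-15b-5p) and 0.71 (miR-322-5p).

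The remaining enriched miRNAs were less particular to the iris. miR-324-5p gave 74.6, 69.6 and 74.7 in the iris and 41.8 to 49.1 in the retina, with a difference of 2.04 ± 0.05 (adjusted p = 4.8e-11). miR-652-3p gave 110, 107 and 112 in the iris and 64.4 to 77.1 in choroid and sclera, with a difference of 1.56 ± 0.11. Its other arm, miR-652-5p, went the opposite way, with a difference of −1.16 (limma adjusted p = 8.2e-05) and no call. That arm gave 9.44 to 21.1 in the iris, 117 to 123 in the lens and at most 10.4 in the sclera. miR-6538 gave 65.5, 75 and 117 in the iris but 156 to 196 in the lens, and it was not detected on any cornea or retina array (1.89 ± 0.15). miR-107-3p, known from lipid and insulin metabolism, gave 255, 249 and 264 in the iris and 223 to 263 in the retina, so the groups overlapped, and it was called higher only than the other 4 tissues (1.44 ± 0.11 from the mean of the 5). miR-301a-3p gave 65.1 to 73.9 in the iris and 97.1 to 114 in the retina, and differed from the mean of the 5 tissues by 1.39 ± 0.19. Its call was lost in 6 of 20 alternatives, namely without the cornea, without the lens, with either other floor, under normexp and with the median scaling. The last 3 were miR-23a-3p (1.30 ± 0.08), miR-28a-5p (1.26 ± 0.04) and let-7i-5p (1.09 ± 0.05). The call of miR-23a-3p was lost without the lens or the retina, the tissues where it was lowest, and that of let-7i-5p without the lens, and each also under other settings.

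The endothelial miR-126a-3p gave 331, 350 and 329 in the iris, 1198, 1030 and 1203 in the choroid and 393, 387 and 242 in the sclera. It was thus highest in the choroid. The retina gave 67.5 to 75.1, no lens array detected it, and 1 of the 3 cornea arrays did, the Lens-induced one at 86.5. The difference was 1.92 ± 0.48 (adjusted p = 0.0045). Its call was lost without replicate 1 (Control, 1.86), without replicate 2 (0D, 1.81), without the lens (1.13) and under normexp (0.89). Of the enriched miRNAs it had the largest SE. The blood cell miRNA miR-451a, with 32.3 to 37.0 in the iris, 34.2 to 59.4 in the choroid and 25.4 to 32.8 in the sclera, differed by 0.96 (adjusted p = 5.8e-05). The part of vessels and blood in these values was not tested.

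Set against each tissue alone, the iris had the fewest differences from the choroid. There, 17 miRNAs (5.52%) were higher and 21 (6.82%) lower in the iris. The sclera had 25 (8.12%) and 46 (14.9%), the retina 40 (13%) and 45 (14.6%), the cornea 42 (13.6%) and 45 (14.6%), and the lens 56 (18.2%) and 62 (20.1%). The correlation of tissue means over the 308 miRNAs followed the same order at its ends, with r = 0.900 for the choroid and 0.704 for the lens, as a description. Of the 20 enriched miRNAs, 19 were also called higher than the lens, 18 than the cornea, 15 than the retina, and 13 each than the choroid and the sclera. In 15 of the 20, all 3 iris arrays lay above all 15 others, which was so for 18 of all 308 tested miRNAs.

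The deepest depletion was that of the sensory cluster, whose members support photoreceptors and hair cells. miR-183-5p gave 13.7, 10.6 and 19.3 on the iris arrays. The retina gave 9710, 8510 and 8906, the choroid 900, 588 and 520, and the sclera 658, 253 and 327. Cornea (88.1, 76.1 and 88.0) and lens (76.9, 182 and 268) were lower but still above every iris array. The difference from the mean of the other 5 tissues was −5.13 ± 0.34 (adjusted p = 1.3e-07).

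miR-96-5p gave 12.5, 9.92 and 13.4 in the iris, 5009 to 6105 in the retina, 267 to 487 in the choroid, 170 to 393 in the sclera, 100 to 124 in the cornea and 54.4 to 158 in the lens, so it too was lowest on the iris arrays. Its difference was −4.90 ± 0.33 (adjusted p = 1.2e-07). These were the 2 miRNAs (0.649% of 308) called lower in the iris than in every other tissue and within each lens group, a count that rose to 5 without the lens. Both were depleted under all 21 alternatives. miR-182-5p was not detected on any iris or lens array, and gave 583 to 721 in the retina, 26.4 to 49.0 in the choroid, 17.5 to 43.2 in the sclera and 26.1 to 38.4 in the cornea. On the detection limits it was at least 118-fold lower in the iris than in the retina and at least 5.80-fold lower than in the cornea, and its fitted difference was −2.15 ± 0.18 (adjusted p = 6.8e-07). The call of miR-182-5p was lost without the retina and with a floor 4 times higher.

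**Figure D3:**
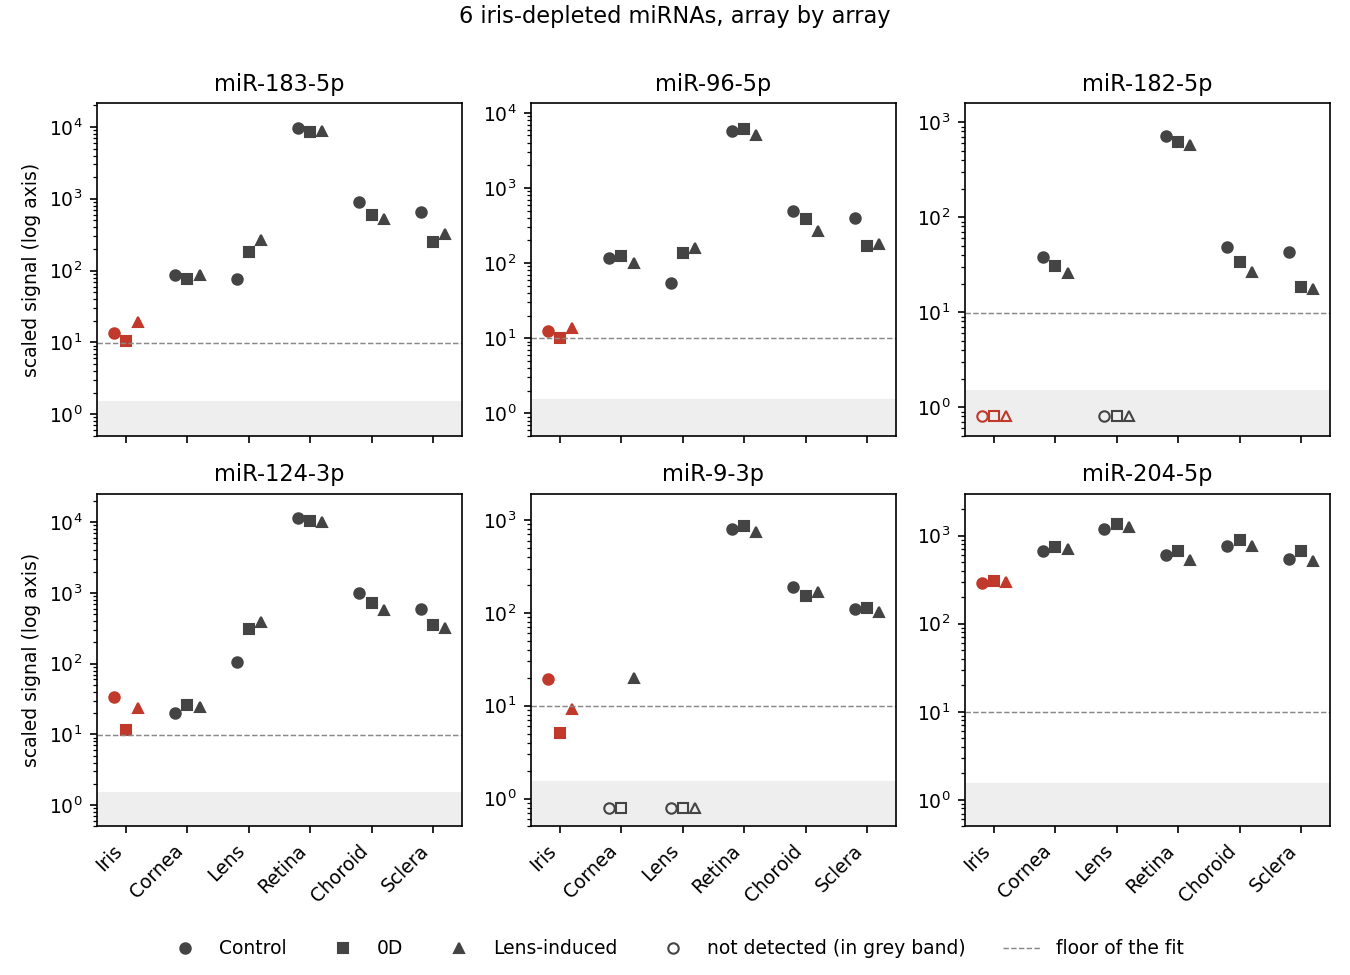
Scaled signal (log axis) of 6 iris-depleted miRNAs on each of the 18 ocular arrays, with iris in red, the other tissues in grey, shapes for the lens group and open symbols in the grey band for arrays without detection. The dashed line is the floor of 9.93. miR-183-5p, miR-96-5p and miR-204-5p were lower on all 3 iris arrays than on the other 15, whereas miR-124-3p was also low in the cornea and miR-9-3p also in the cornea and lens.

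The retina held the highest signals of 11 of the 21 depleted miRNAs, the lens of 5, the sclera of 4 and the cornea of 1. Without the retina, 14 of the 21 kept their call, and the differences of miR-183-5p and miR-96-5p were −4.08 and −3.91. The summed signal of the 3 sensory miRNAs was 20.5 to 32.8 on the iris arrays, 14498 to 16170 in the retina, 813 to 1436 in the choroid, 441 to 1094 in the sclera, 214 to 244 in the cornea and 131 to 427 in the lens. The part of retinal tissue in the values of the other tissues was not tested.

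Several neuronal miRNAs were depleted in the iris. miR-124-3p, an abundant miRNA of neurons, gave 33.4, 11.6 and 23.5 in the iris, 10202 to 11409 in the retina, 570 to 985 in the choroid and 105 to 390 in the lens. The cornea, with 20.2, 26.2 and 24.3, overlapped the iris. The difference from the mean of the 5 tissues was −4.41 ± 0.39 (adjusted p = 1.2e-06) and that from the cornea −0.17 (adjusted p = 1). miR-9-3p gave 19.2, 5.13 and 9.17 in the iris and 746 to 868 in the retina, and was detected on 1 cornea array and no lens array. Its difference was −2.52 ± 0.22 (adjusted p = 9.4e-07), and the call was lost without the retina. miR-129-2-3p (−1.30 ± 0.08) and miR-129-5p (−1.18 ± 0.09), 43 bases apart on chromosome 2, were high in the retina (352 to 443 and 306 to 382). They stood at 4.76 to 8.01 and 3.77 to 6.12 in the iris, under the floor. The sclera was also under the floor (7.90 to 9.22 and 6.05 to 8.72), and no cornea or lens array detected them. The choroid gave 17.3 to 24.8 and 15.4 to 22.7. Both calls were lost without the retina and with either other floor, and that of miR-129-2-3p also without scaling. The neuronal list also holds miR-219a-5p and miR-338-3p, known from oligodendrocytes, and miR-375-3p, which was highest in the lens (43.9 to 46.6). Of the 15 tested miRNAs of this list, 4 were depleted, 10 were lower and 1 higher by adjusted p, and the median was −0.51. Among all 308, 6.82% were depleted, 35.4% lower and 22.1% higher, with a median of −0.08. The 1 that was higher was miR-181c-5p at 1.03, with 38.8 to 40.0 in the iris and 78.8 to 90.5 in the retina. The summed signal of the 15 was 115 to 175 in the iris, 20.2 to 53.1 in the cornea and 12081 to 13552 in the retina.

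**Figure D4:**
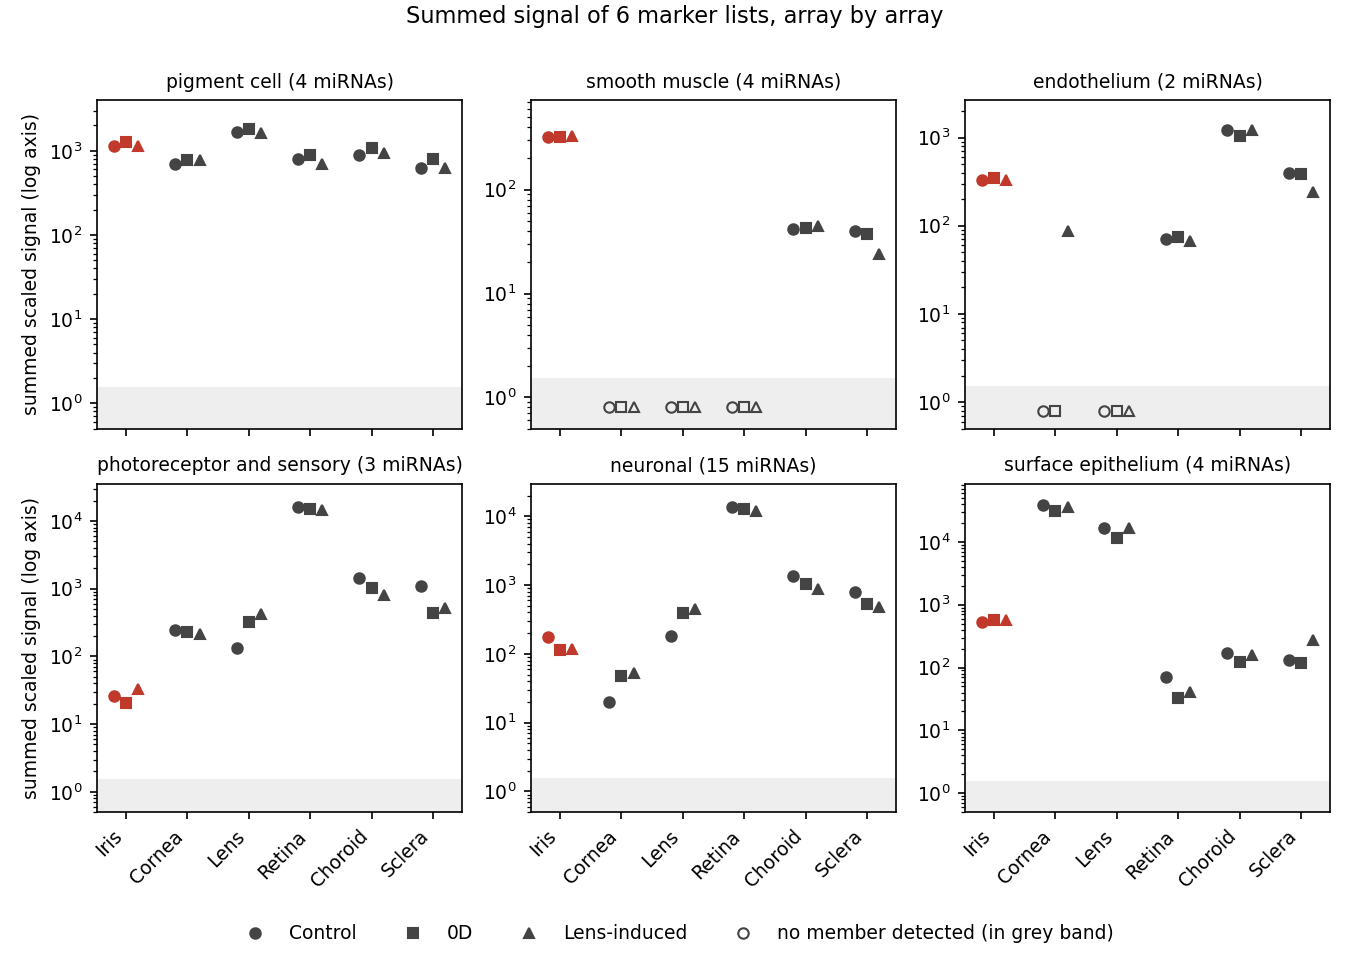
Summed scaled signal (log axis) of 6 lists of marker miRNAs on each of the 18 ocular arrays, with iris in red, the other tissues in grey, shapes for the lens group and open symbols in the grey band where no member was detected. The smooth muscle list was highest and the sensory list lowest on the iris arrays. The pigment cell list was highest in the lens, where miR-204-5p (1198 to 1349) made up most of the sum. miR-211-5p of the same list was 21.2 to 28.2 in the lens and 772 to 906 in the iris.

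miR-210-3p, induced by low oxygen, gave 44.4, 36.9 and 48.7 in the iris. The choroid (48.5 to 64.7) and sclera (49.1 to 59.3) were close to it, and cornea (221 to 316), lens (116 to 143) and retina (514 to 676) were higher. The difference was −1.71 ± 0.10 (adjusted p = 5.2e-08), with −0.80 and no call without scaling. miR-154-5p and miR-127-3p, of the imprinted Dlk1-Dio3 cluster on chromosome 12, were detected on all iris arrays but under the floor, at 3.62 to 5.22 and 2.94 to 4.04. Their highest signals were 71.2 and 70.1, both in the retina, and their differences were −1.47 ± 0.09 and −1.35 ± 0.07. Of 17 tested members of this cluster, 9 were lower and 0 higher in the iris by adjusted p, against 35.4% and 22.1% of all 308, with a median of −0.28 against −0.08.

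miR-3473b, whose role is little known, gave 74.6, 103 and 154 in the iris, 1793 to 2489 in the choroid, 2589 to 5287 in the sclera and 51.6 to 68.8 in the lens. Its difference was −2.44 ± 0.21 (adjusted p = 9.5e-07), and it was depleted under all 21 alternatives. miR-690 was also low in the iris (4.50 to 9.14) and highest in the sclera (77.0 to 170), with a difference of −1.79 ± 0.23. miR-6769b-5p stood at 278 to 389 in the lens and 3.10 to 7.46 in the iris. No retina array detected it, and its difference of −1.52 ± 0.16 was not called without the lens.

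The other depleted miRNAs were contrasts with some of the 5 tissues only. miR-205-5p, a marker of surface epithelium, gave 895 to 1108 in the cornea and 4.53 to 8.06 in the iris, with no detection in the other 4 tissues. Its depletion (−1.34 ± 0.05) thus rests on the cornea alone. miR-31-5p was high in cornea and lens (211 to 370), stood at 18.6 to 20.2 in the iris and had no detection in the retina (−1.22 ± 0.06). miR-199a-5p (−1.41 ± 0.06) and miR-214-3p (−1.16 ± 0.09), known from connective tissue cells, were highest in the sclera (104 to 133 and 153 to 203) and stood at 7.44 to 9.23 and 11.8 to 13.4 in the iris. Choroid arrays gave 46.2 to 54.1 and 74.6 to 98.3, and cornea arrays gave 20.3 to 23.5 for miR-199a-5p. The cornea gave at most 12.1 for miR-214-3p, and no lens or retina array detected either miRNA. The other arm, miR-199a-3p, differed by only −0.02 (limma adjusted p = 0.65), with 84.0 to 100 in the iris and 832 to 929 in the sclera. miR-214-3p kept its call in 9 of 20 alternatives. miR-181b-5p (−1.39 ± 0.08) was highest in the retina at 273 to 328. miR-6937-5p (−1.16 ± 0.15) and miR-3473g (−1.11 ± 0.09) were highest in the lens. Of these 7, only miR-214-3p lost its call under the median scaling, and all 7 lost it without scaling.

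The counts of families and lists stand against 22.1% higher, 35.4% lower and 6.49% enriched among all 308 miRNAs. Of 9 let-7 miRNAs, which favour differentiation, 8 were higher in the iris by adjusted p and 2 were enriched. Their median was 0.48, against −0.08 for all 308, and it stayed positive under the 5 other scalings and corrections (0.39 to 1.39). Of the 5 miRNAs of the miR-23/27/24 family, known from vessels, 4 were higher and 1 was enriched (median 0.85, and 0.67 to 1.76 under the others). The family's summed signal was 1927 to 1951 on the iris arrays. Cornea (1889 to 2015), choroid (1824 to 2118) and sclera (1785 to 2372) overlapped this range. Lens (407 to 451) and retina (364 to 404) were lower. All 5 of miR-125 and miR-99/100 were higher and 2 were enriched (median 0.64). Their sums overlapped between iris (1401 to 1453), choroid (1388 to 1540) and sclera (1207 to 1482). Of the miR-30 family, 6 of 7 were higher and 0 were enriched (median 0.51), but the family's sum was larger in the retina (1377 to 1555) than in the iris (1101 to 1221). The 4 tested members of the miR-29 family, which restrain collagen, were all higher (median 0.44), but the median was −0.06 under normexp. The sum of this family was 1388 to 1495 in the iris, 1494 to 1617 in the choroid and 2572 to 3323 in the retina.

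In the mesenchyme list 3 of 7 were higher and 3 lower by adjusted p, against 22.1% and 35.4% of all miRNAs. The median was −0.02 in the main setting, 1 without scaling, 0.68 with the 75th percentile of each array, 0.04 with quantile normalization, −0.14 with the median scaling and −0.60 under normexp. miR-199b-5p gave 134 to 149 in the iris, had no detection in the lens, gave 3.05 to 5.09 in the retina and 950 to 1052 in the sclera, with a difference of 0.55. The striated muscle list had 3 of 4 lower, with a median of −0.42 and 0.35 without scaling. All 5 tested miR-200 family members, epithelial miRNAs, were lower by adjusted p (median −0.79), with a median of 0.45 without scaling and 0.21 with the 75th percentile of each array. miR-200b-3p gave 495 to 543 in the cornea and 11.5 to 14.9 in the iris, with no detection in the remaining 4 tissues. The corneal and lens miRNA miR-184-3p gave 505 to 550 in the iris, 29710 to 36854 in the cornea and 32.6 to 70.5 in the retina. The summed signal of the 4 surface epithelial miRNAs was 530 to 576 in the iris and 120 to 275 in the sclera. The part of corneal tissue in the iris values was not tested.

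Of the 245 miRNAs detected on at least 1 iris array, 4 were detected on all 3 iris arrays and on none of the other 15. These were miR-145a-5p, miR-224-5p, miR-28c and miR-490-3p. Apart from miR-145a-5p, their iris signals were 2.05 to 8.39, while the limits of detection on the other arrays were 5.08 to 27.4. The tissues therefore could not be told apart for these 3 at this sensitivity. No miRNA was detected on all 15 other arrays and absent from all 3 iris arrays.

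The pattern of miR-211-5p over the 6 tissue means was most like those of miR-378d (Pearson r = 0.986), miR-324-5p (0.979), miR-98-5p (0.964), miR-378b (0.957) and miR-378a-3p (0.957). These correlations over 6 tissues are a description, and the tissues share the arrays and the scaling. All 5 had their highest tissue mean in the iris and their lens mean at the floor, so floored values enter these correlations. miR-98-5p, a let-7 relative, gave 14.8 to 19.9 in the iris, which overlapped the retina (13.7 to 17.6).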

How the data were processed

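Total RNA (100 ng) labeled with Cy3 was hybridized by the authors to 1-color Agilent arrays and digitized with Feature Extraction 10.7.1.1, as the submitters' processing notes give it. The deposited scanner files hold intensities: for each probe a total signal after background subtraction, with its error. Each of 1881 miRNAs had 30 spots on 1 to 4 probes. Here the signal of a miRNA was the sum over its probes above 3 errors, which matched the detection flag of the files in all 45144 values. A deposited table of normalized intensities was not used here, because its column names did not settle the lens group. Signals were scaled to the 75th percentile over 79 miRNAs detected on all 24 arrays and floored at 9.93, and log2 values of 308 miRNAs detected on 3 or more of 18 arrays were tested.

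limma 3.58.1 in R 4.3.3 (lmFit, eBayes with trend) fitted tissue with lens group as a block, leaving 10 residual degrees of freedom, and the Benjamini-Hochberg adjustment ran over all 308. Same-numbered arrays shared a slide, which is the lens group. Where no array of 1 of the 2 tissues compared detected a miRNA, the fold is a lower bound against the higher of the lowest detected signal and its probes at 3 errors. Arrays give no counts, and their number limits the precision. In simulated data with 1881 miRNAs, 44 of 50 miRNAs set 1.5 log2 units higher and 48 of 50 set 1.5 lower were called, and 0 of 1681 unchanged ones. The simulated miRNAs started well above the floor, counted as detected on every array and had a common mean in the other 5 tissues. These rates therefore do not carry over to miRNAs near the floor or to differences among the other tissues. The text names the 15 most enriched and 10 most depleted miRNAs, those highest or lowest in the iris, members of the lists, and the 5 most like miR-211-5p. The other called miRNAs are named to account for every member. The members and lists were chosen with earlier results of these data known. Python 3.11.15, numpy 2.4.6, pandas 2.3.3 and matplotlib 3.10.9 were used.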

Additional observations from a re-analysis of the deposited data

Results flagged for a closer look

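miR-107-3p was iris-enriched among the ocular tissues, yet it was higher on the brain arrays of the series, which the comparison does not use. The 3 arrays of the SCN and the 3 of the LGN, 2 brain regions, gave 402 to 580, above all 3 iris arrays (249 to 264), and the mean log2 signal was 0.87 higher in the brain. Brain and iris were not tested against each other.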

How the results depend on the processing

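Of 590 values of 29 named miRNAs under 21 alternatives, 564 kept their direction and their side of an adjusted p of 0.05, 22 kept only the direction and 4 reversed. By the full definition, which also asks for a log2 difference of 1 in each lens group, the 41 called miRNAs kept their call in 699 of 836 tests under the alternatives and lost it in 137. Of 284 counts, 81 moved by over 1.5 times, and their cause was not tested. The reversed values were those of miR-211-3p (−0.11 with a floor 4 times higher and −0.055 under normexp), miR-145a-5p (−0.010 under normexp) and miR-99b-5p (−0.19 with the gene signal as printed in the files). Counts are given below as enriched, depleted, highest, lowest, and higher or lower than single tissues. Without scaling, and equally with the 75th percentile over all miRNAs, they were 64 enriched, 12 highest, 107 higher and 16 lower than cornea, 121 and 29 for lens, 65 and 73 for retina, 30 and 35 for choroid, and 85 higher than sclera. With the 75th percentile over each array's detected miRNAs (chosen, like the median scaling, after seeing the data) there were 44 enriched, 99 higher and 20 lower than cornea, 99 higher than lens, 61 higher than retina, 46 lower than choroid and 41 higher than sclera. Quantile normalization gave 10 highest. With a floor of 0.1 there were 80 enriched, 69 depleted, 98 higher than cornea, 125 higher than lens, 74 higher and 84 lower than retina, 30 and 44 for choroid, and 53 higher than sclera. With a floor 4 times higher there were 12 enriched, 9 depleted, 3 highest, 1 lowest, and 21 and 27 for cornea, 33 and 37 for lens, 24 and 22 for retina, 8 and 12 for choroid, and 13 and 20 for sclera. Over the 88 miRNAs detected on all 18 arrays there were 7 enriched, 9 depleted, 2 highest, and 16 and 24 for cornea, 27 and 33 for lens, 23 and 17 for retina, 6 and 8 for choroid, and 14 and 17 for sclera, where fewer miRNAs were tested. Normexp gave 6 enriched, 3 highest, 4 lowest, 14 and 189 for cornea, 22 and 226 for lens, and 25, 7 and 8 higher than retina, choroid and sclera. The printed gene signal gave 34 depleted, 71 lower than cornea and 35 lower than choroid. It also gave 29 enriched, but only 7 of the 20 main enriched miRNAs were among them. Of the 6 main miRNAs highest in the iris it kept 2, and of the 21 main depleted ones 13. Leaving out the lens gave 5 lowest, and leaving out the retina gave 12 highest. Leaving out 1 lens group at a time gave 21 to 22 enriched and 21 to 31 depleted. With no replicate block the counts stayed at 20 enriched, 21 depleted, 6 highest and 2 lowest. Same-numbered arrays share a slide, so the block is the slide. The higher detection limits of cornea and lens arrays limit what could be seen there.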

Other observations

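On the 6 brain arrays (SCN and LGN), the iris-enriched miR-143-3p was detected on 2 arrays. miR-211-5p was detected on 3 arrays, at 4.51 at most. miR-34a-5p was detected on all 6, with signals of 157 to 673. Of the iris-depleted miRNAs, the sensory miR-96-5p and miR-182-5p were not detected on any brain array, whereas miR-124-3p (1396 to 2111) and miR-9-3p (1049 to 1417) were bright on all 6. The imprinted miR-127-3p (200 to 482) and miR-154-5p (141 to 293) were also higher on each brain array than on any ocular array. These are values without a test, since the brain arrays were in no comparison.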
